A study of Mus musculus with 12 samples.

Results

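The genes described here are 10 heat shock genes of the mouse: Hspa1a, Hspa1b, Hspa8, Hsph1, Dnajb1, Hsp90aa1, Hsp90ab1, Hspb1, Hspd1 and Hsf1. The rule took the rows with these gene names among the 55421 genes measured, and each name stood on 1 row; the names themselves were chosen with earlier results of these data known. Of the 10 genes, 8 reached 10 normalized counts in 3 or more of the 12 libraries and were thereby among the 14721 genes tested. Hspa1a and Hspb1 stayed below that level and are given by their values. The set is mostly cytosolic, but Hspd1 encodes a chaperonin of the mitochondrial matrix and Hsf1 encodes a transcription factor, not a chaperone.

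RNA was sequenced from B16F10 cells, a mouse melanoma line kept in culture. The 4 groups, with 3 libraries each, were Bub1KO cells given 8 Gy of radiation, vector control (VC) cells given 8 Gy, untreated Bub1KO cells and untreated VC cells. Bub1KO cells carry a CRISPR-Cas9 disruption of Bub1, a kinase of the mitotic checkpoint, and the study set them against VC cells to see how the loss of Bub1 alters the radiation response. The sources used here do not give the time from irradiation to harvest, the guide, or how many Bub1KO lines were used. Whether libraries of 1 group are separate cultures is not stated either, so the p-values may measure technical spread only.

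Heat shock proteins are chaperones that bind unfolded proteins. HSP70 proteins take up client proteins that J-domain proteins bring to them, HSP110 proteins help HSP70 to release them, HSP90 proteins complete the folding of kinases and receptors, and small heat shock proteins hold unfolded proteins without using ATP. When unfolded protein accumulates, the transcription factor HSF1 forms trimers that bind heat shock elements, repeats of the unit GAA and its reverse complement TTC, and raise the transcription of the inducible genes. Hspa8 and Hsp90ab1 are the forms that cells make without stress, whereas Hspa1a, Hspa1b and Hspb1 are known for a steep rise on heating.

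Reads in genes numbered 19380726 to 33087366 per library. Untreated Bub1KO replicate 1 stood apart from the rest of its group: its counts differed from those of replicates 2 and 3 by a chi-square of 57.7 and 54.9 per gene, while replicates 2 and 3 differed by 8.38, and pairs of libraries in the other groups by 6.04 to 19.8. Results that use this library are therefore also given without it where a member's call or a leading count changes. Bub1 itself had 886, 989 and 1119.8 normalized counts in irradiated Bub1KO cells, against 1484, 1461 and 1507 in irradiated VC cells. Untreated Bub1KO cells had 1834, 1565 and 1588 normalized counts of Bub1, against 2752, 3185 and 2859 in untreated VC cells. The transcript was thus lower in every Bub1KO library but still present. All 7 melanocyte lineage markers examined were detected in every library, at 592 normalized counts or more. Their sum was 555547 to 578932 in irradiated Bub1KO and 430616 to 445913 in irradiated VC. Without irradiation it was 542890 to 552089 in Bub1KO and 386911 to 404327 in VC. Of 6 leukocyte markers, Cd3e and Adgre1, which mark T cells and macrophages, were at 0 in every library, and Ptprc did not exceed 1.29. Cd68, Lyz2 and Cd79a had highest values of 223.9, 72.6 and 47.5.

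RefSeq's promoter windows of GRCm38.p6, 250 bases before to 50 bases after an annotated start, covered 6 of the 10 genes with 9 windows. The sequences below are shown because they hold the heat shock element letters of the near-identical Hspa1 pair and of Hsph1 and Hspd1, the genes with the largest declines after irradiation. They were read from the strand of the gene, and capitals mark every match to GAANNTTC or TTCNNGAA, the paired unit of the element.
Hspa1b, chr17:34959189-34959488, minus strand: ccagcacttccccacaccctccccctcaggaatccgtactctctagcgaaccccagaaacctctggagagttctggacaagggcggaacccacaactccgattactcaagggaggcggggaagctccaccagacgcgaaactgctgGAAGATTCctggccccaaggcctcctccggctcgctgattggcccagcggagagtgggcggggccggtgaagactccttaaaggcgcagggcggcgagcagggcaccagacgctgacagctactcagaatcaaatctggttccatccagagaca
Hspa1a, chr17:34972107-34972406, minus strand: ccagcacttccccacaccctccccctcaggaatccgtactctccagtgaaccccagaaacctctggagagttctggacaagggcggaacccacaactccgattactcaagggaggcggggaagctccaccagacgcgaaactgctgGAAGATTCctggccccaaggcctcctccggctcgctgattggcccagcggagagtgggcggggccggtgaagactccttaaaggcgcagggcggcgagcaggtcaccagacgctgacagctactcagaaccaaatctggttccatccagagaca
Hsph1, chr5:149636287-149636586, minus strand: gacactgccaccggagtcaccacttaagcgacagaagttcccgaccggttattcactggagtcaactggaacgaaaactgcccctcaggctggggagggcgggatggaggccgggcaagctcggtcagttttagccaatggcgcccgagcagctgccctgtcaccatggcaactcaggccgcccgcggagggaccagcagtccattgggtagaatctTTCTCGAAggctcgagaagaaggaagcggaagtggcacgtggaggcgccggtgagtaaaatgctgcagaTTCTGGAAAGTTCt
Hspd1, chr1:55087883-55088182, minus strand: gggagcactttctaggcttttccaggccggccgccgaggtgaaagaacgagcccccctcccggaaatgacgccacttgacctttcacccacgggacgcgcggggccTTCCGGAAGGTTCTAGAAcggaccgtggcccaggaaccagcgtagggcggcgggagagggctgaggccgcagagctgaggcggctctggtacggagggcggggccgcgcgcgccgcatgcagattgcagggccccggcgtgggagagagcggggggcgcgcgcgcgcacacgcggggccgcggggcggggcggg
Hspa1b and Hspa1a shared 296 of 300 bases. Written as the Hspa1b base, the position counted from 1 at the 5′ end of the window, and the Hspa1a base, the differences were T44C, C47T, G249T and T276C, and none of them fell in the capitals.

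Either paired unit was found in 6 of the 9 windows, from 5 of the 6 genes, and in 15.05% of all 32817 promoter windows of the table. Dnajb1, which is heat-inducible, was the gene without such letters in any of its windows. A further unit in register, GAANNTTCNNGAA searched on both strands, stood in 0.6033% of all windows. Among these genes it was found in both overlapping Hsph1 windows, and at 2 overlapping places in the Hspd1 window shown, which share the run of capitals. In Hspd1 these began 144 and 139 bases before the start of that window, which lies inside the annotated gene. The other Hspd1 window, chr1:55088194-55088493, holds the gene's outermost annotated start (55088243) and no paired unit. The Hspd1 matches thus lie downstream of that outermost start. In the Hsph1 window shown the match began 37 bases after the start. CCAAT, searched on both strands, was in 6 of the 9 windows and in 37.39% of all windows. These matches describe letters in the windows and do not show that HSF1 binds there.

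**Figure D1:**
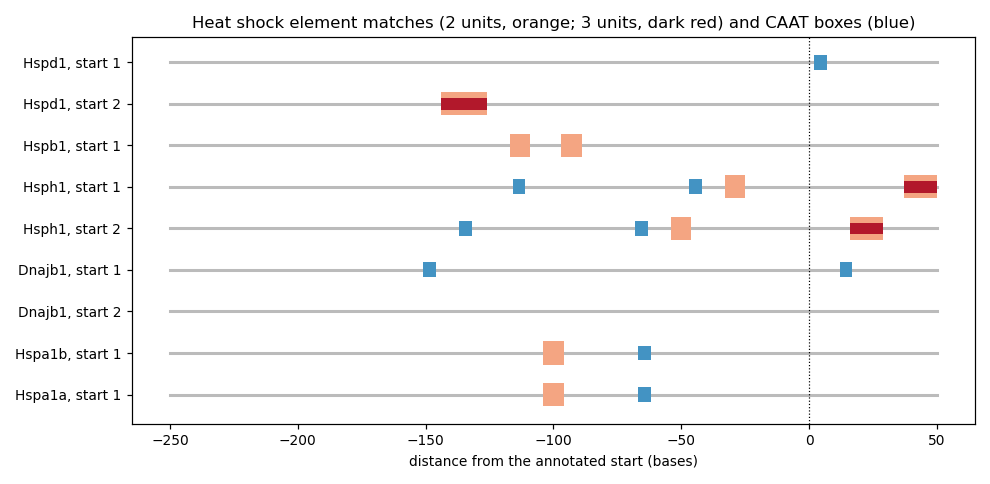
Map of the 9 promoter windows; the x axis gives the distance from the annotated start in bases, each grey line is a 300-base window, and blocks mark paired heat shock element letters (orange), matches of 3 units (dark red) and CAAT boxes (blue). The blocks of Hspa1b and Hspa1a stand at the same places, and matches of 3 units lie before start 2 of Hspd1 and after both starts of Hsph1. The window of start 1 of Hspd1 has no heat shock element letters.

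Levels per kilobase of exon set the genes in an order that was nearly the same in every library. Hsp90ab1 was the most abundant, with a mean over the 12 libraries of 45388 normalized counts per kb, and ranked 13 of 14711 tested genes with a known length. Hspa8 followed with 13945 normalized counts per kb, Hsp90aa1 with 10117 and Hspd1 with 7551. Hsph1 and Dnajb1 had 665 and 513 normalized counts per kb, and Hsf1 had 180.0. Hspa1b, the inducible HSP70, had 17.2 normalized counts per kb, and Hspb1 had 3.63. Hspa1a had 1 read in all 12 libraries together, found in untreated VC replicate 1. Each gene was above the next in 12 of 12 libraries, except that Hsph1 exceeded Dnajb1 in 7 of 12 and Hspb1 exceeded Hspa1a in 11 of 12. The inducible HSP70 and HSP27 genes were thus low in every group, while the constitutive chaperones were among the abundant transcripts of these cells.

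**Figure D2:**
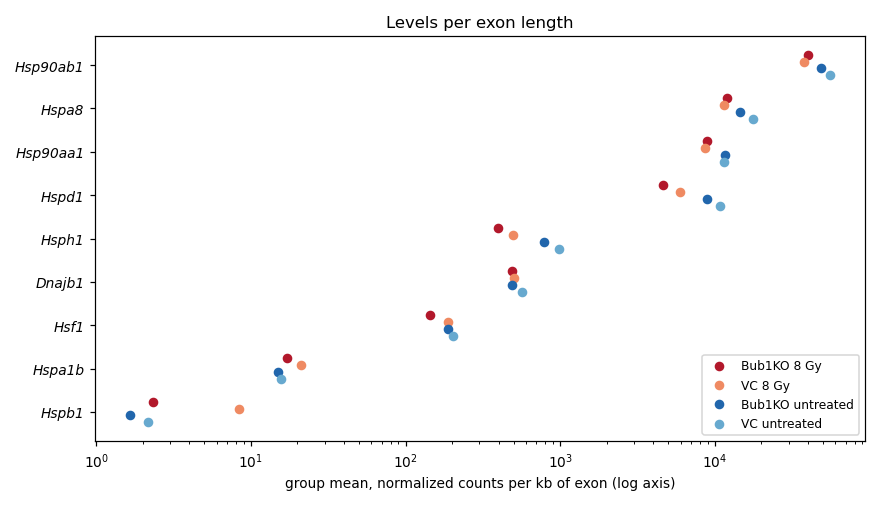
Mean level of 9 heat shock genes in each group, in normalized counts per kb of exon on a log axis; each point is the mean of 3 libraries, and Hspa1a, with 1 read in all, is left out. The 4 points of Hsph1 and Dnajb1 overlap, whereas Hsf1, Hspa1b and Hspb1 stand lower in every group.

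The 10 genes together took 0.937% to 0.967% of the reads in genes in irradiated Bub1KO libraries, 0.878% to 0.967% in irradiated VC, 1.05% to 1.23% in untreated Bub1KO and 1.26% to 1.38% in untreated VC. Irradiated libraries were below untreated ones of the same genotype without overlap, and untreated Bub1KO was below untreated VC, while the irradiated genotypes overlapped. A bulk library cannot tell fewer cells that express a gene from less of its RNA per cell.

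The first comparison asked what 8 Gy did within each genotype. In Bub1KO cells 5 of the 8 tested genes fell after 8 Gy (Hspd1, Hsph1, Hsp90aa1, Hsp90ab1 and Hsf1), and in VC cells 5 fell (Hsph1, Hspd1, Hspa8, Hsp90ab1 and Hsp90aa1). None rose in either genotype by limma on log2(value + 1) with Benjamini-Hochberg adjustment over all tested genes, and edgeR and DESeq2 on the recovered reads called none higher either. Passing the threshold was common after irradiation: 49.4% of all tested genes passed in Bub1KO, 23.9% lower and 25.4% higher, and 53.4% passed in VC, 25.8% lower and 27.6% higher. The median log2 difference of the 8 genes was -0.32 in Bub1KO and -0.48 in VC, beside 0.028 and 0.017 over all tested genes. Without untreated Bub1KO replicate 1 the counts were 5 lower in Bub1KO and 6 lower in VC, where Dnajb1 then passed as well (adjusted p = 0.0444, limma). Of all tested genes 51.4% passed in Bub1KO and 61.3% in VC in that fit, so calls were more frequent over all genes too.

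The second comparison set Bub1KO against VC at the same treatment. After 8 Gy, Hspd1, Hsph1 and Hsf1 were lower in Bub1KO and none of the 8 was higher; 30.7% of all tested genes passed there, 16.4% lower and 14.3% higher. Without irradiation 0 of the 8 passed in limma, 3 had an unadjusted p under 0.05, and edgeR and DESeq2 on the recovered reads of the same 6 libraries also called 0; 4.01% of all tested genes passed, 1.71% lower and 2.31% higher. The count of 0 among the 8 depended on the fit. With the GC trend removed 2 were lower, Hsph1 and Hspd1, and the same 2 with all 12 libraries in the fit. Of all 14721 tested genes 1690 and 1769 passed in those fits. Without untreated Bub1KO replicate 1, 3 of the 8 were lower in untreated Bub1KO cells, Hsph1, Hspd1 and Hspa8, when 18.6% of all tested genes passed. In the authors' deposited table for the untreated cells, Hspd1 (adjusted p = 0.0178), Hsph1 (adjusted p = 0.0263) and Hsp90ab1 (adjusted p = 0.0383) were lower in Bub1KO at the same threshold of 0.05. These values come from the authors' own fit. The mean deposited beside them was taken over all 12 libraries, so that fit probably held 12 libraries rather than 6. The fit on all 12 libraries given above also called Hsph1 and Hspd1 lower, but not Hsp90ab1.

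The third comparison was the interaction, the change after 8 Gy in Bub1KO minus that in VC. In limma 0 of the 8 genes passed, with 2 at an unadjusted p under 0.05, and edgeR and DESeq2 on the recovered reads called 0; 0.55% of all tested genes passed, 0.414% negative and 0.136% positive. Leaving out untreated Bub1KO replicate 1 gave 2 calls among the 8, Hspa8 and Hsf1, when 9.83% of all tested genes passed.

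**Figure D3:**
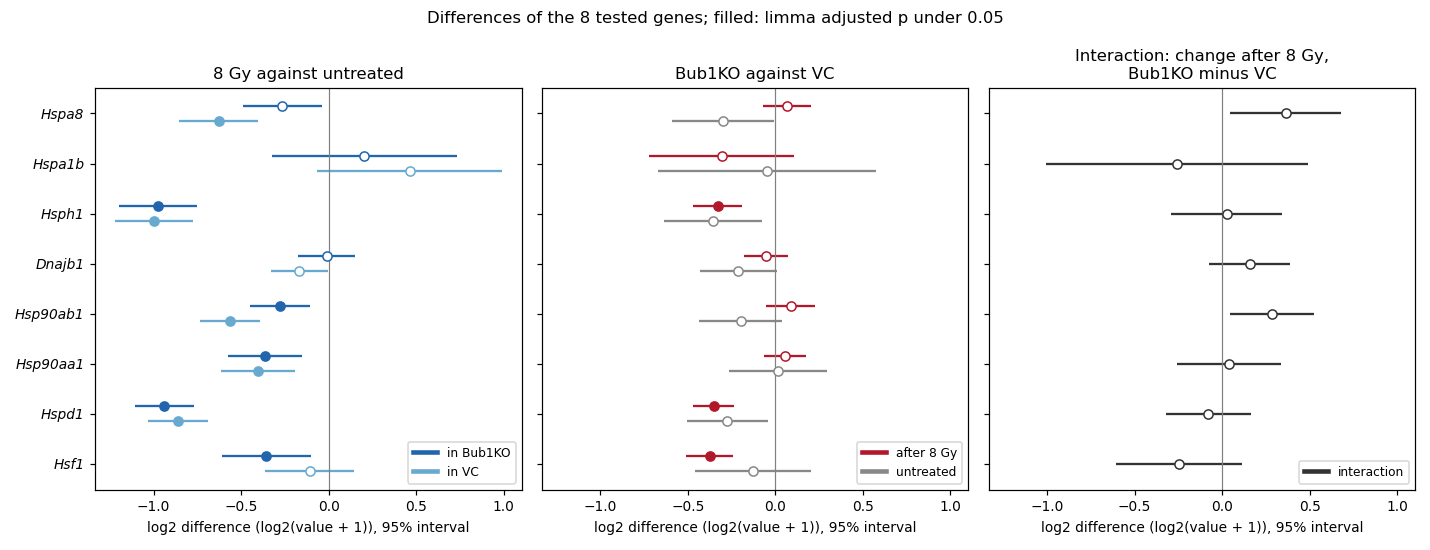
Log2 differences of the 8 tested genes with 95% intervals: 8 Gy against untreated in each genotype (left), Bub1KO against VC at each treatment (middle) and the interaction (right). Filled points passed limma's adjusted p of 0.05; Hsph1 and Hspd1 lie near -1 after 8 Gy in both genotypes, and no point of the interaction is filled.

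Some markers of other cells differed between the same groups. The sum of 6 leukocyte markers was 313 to 328 normalized counts in irradiated Bub1KO, 197 to 229.7 in irradiated VC, 32.1 to 34.8 in untreated Bub1KO and 34.8 to 36.5 in untreated VC. Of these markers 3 reached 10 normalized counts in any library (Cd68, Lyz2 and Cd79a), Cd3e and Adgre1 were at 0, and Ptprc, which all leukocytes carry, did not exceed 1.29. The sum of 5 fibroblast markers was 228 to 256 normalized counts in irradiated Bub1KO, 328 to 337 in irradiated VC, 175 to 199.9 in untreated Bub1KO and 179 to 239 in untreated VC. After 8 Gy the fibroblast markers went both ways. Mean Col1a2 was 172 normalized counts in irradiated and 92.8 in untreated Bub1KO, and 263 and 80.4 in VC. Mean Pdgfra was 38.5 and 84.8 normalized counts in Bub1KO, and 42.1 and 115.7 in VC. Col1a1 rose with Col1a2 at lower levels, and Dcn and Lum did not exceed 1.03 and 6.19. GC content differed as well: relative to each gene's mean over all libraries, the genes of highest GC content exceeded those of lowest GC content by 0.076 to 0.28 on the log2 scale in irradiated Bub1KO and by 0.16 to 0.34 in irradiated VC. The same gap was -0.70 in untreated Bub1KO replicate 1, 0.030 and 0.073 in replicates 2 and 3, and -0.36 to -0.13 in untreated VC. The part of the marker genes in the heat shock results was not tested. With the GC trend removed, the log2 difference of Hsph1 after 8 Gy was -0.90 in Bub1KO and -0.91 in VC. That of Hspd1 was -0.86 and -0.76. Hsp90aa1 had smaller declines than in the fit without that removal, -0.23 in Bub1KO and -0.27 in VC, as did Hspa8, -0.17 and -0.52. Those of Hsp90ab1 (-0.33 and -0.58) and Hsf1 (-0.49 and -0.20) were larger. In Bub1KO 5 of the 8 genes were called lower. In VC 7 were, where Dnajb1 and Hsf1 were added, and none was called higher in either genotype. Of all tested genes 54.3% passed in Bub1KO and 57.2% in VC with the GC trend removed, both more than in the fit without that removal.

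Hsph1, an HSP110 protein that releases clients from HSP70 (ENSMUSG00000029657.15, chr5:149614287-149636376, minus strand), showed, with Hspd1, the largest declines of the 8 tested genes after irradiation. It had 2602, 2954 and 3044 normalized counts in irradiated Bub1KO cells, 3637, 3498 and 3648 in irradiated VC, 6796, 4788 and 5437 in untreated Bub1KO and 7077, 7219.6 and 7263 in untreated VC. No irradiated library reached the lowest untreated one, and the irradiated Bub1KO libraries lay below all irradiated VC libraries. After 8 Gy Hsph1 stood at 50.5% of the untreated mean in Bub1KO and at 50.02% in VC. The log2 difference was -0.97 ± 0.10 (SE, n = 3 each) in Bub1KO, with a limma adjusted p of 4.7e-06, and -0.9995 ± 0.10 in VC, with an adjusted p of 3.6e-06. Irradiated Bub1KO cells averaged 2867 ± 233 and irradiated VC cells 3594 ± 83.4 (SD, n = 3 each), a log2 difference of -0.33 ± 0.06 (SE; limma adjusted p = 0.0022). Without a filter on low values this adjusted p was 0.0579. Untreated Bub1KO cells averaged 5674 ± 1024 and untreated VC cells 7186 ± 97.4, a log2 difference of -0.36 that did not pass (adjusted p = 0.158, limma). Replicate 1 was the highest of the untreated Bub1KO libraries, and without it the difference was -0.49 (adjusted p = 0.0015).

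Hspa8, the constitutive HSP70 of the cytosol (ENSMUSG00000015656.17, chr9:40800984-40810087, plus strand), declined in VC. Its values were 47544, 54095 and 53469.9 normalized counts in irradiated Bub1KO, 50078, 48494 and 49440.5 in irradiated VC, 72201, 52907 and 62311 in untreated Bub1KO and 72910, 72836 and 83442 in untreated VC. In VC the irradiated and untreated libraries did not overlap, and in Bub1KO they did, through untreated replicate 2. Hspa8 fell by 0.63 on the log2 scale in VC (SE 0.10; limma adjusted p = 0.00021). In Bub1KO the log2 difference was -0.26 ± 0.10, with a limma adjusted p of 0.05004, just short of the threshold; edgeR and DESeq2 on the recovered reads put it below 0.05, as did leaving out untreated Bub1KO replicate 2 or untreated VC replicate 3. Without untreated Bub1KO replicate 1 the difference was smaller, -0.15 (limma adjusted p = 0.153). The interaction was 0.36 with a 95% interval of 0.046 to 0.68 (limma adjusted p = 0.334). Without untreated Bub1KO replicate 1, the highest Hspa8 value of its group, the interaction was 0.47 (adjusted p = 0.0164) and the untreated genotype difference was -0.41 (adjusted p = 0.0161), against -0.30 (adjusted p = 0.249) with it. Irradiated genotypes overlapped, at 51703 ± 3615 in Bub1KO and 49337 ± 797 in VC (SD, n = 3 each; log2 difference 0.065, 95% interval -0.073 to 0.20).

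Hspa1b, an inducible HSP70 (ENSMUSG00000090877.3, chr17:34956436-34959238, minus strand), was low throughout. Irradiated Bub1KO cells had 39.2, 58.6 and 46.2 normalized counts, irradiated VC cells 51.2, 66.3 and 60.1, untreated Bub1KO cells 40.7, 32.1 and 52.7 and untreated VC cells 49.7, 29.7 and 51.7. All 4 groups overlapped with at least 1 other, and no comparison passed. The log2 difference after 8 Gy was 0.21 in Bub1KO (95% interval -0.32 to 0.73; limma adjusted p = 0.516) and 0.46 in VC (95% interval -0.067 to 0.99; adjusted p = 0.129), so a change of nearly 1 log2 unit upward in VC lies within the interval. With the GC trend removed these differences were -0.068 and 0.066. Hspa1a (ENSMUSG00000091971.3, chr17:34969190-34972156, minus strand) encodes nearly the same protein next to it. Of the 100-base windows in its transcripts, 56.5% also occur in another gene, as do 49.9% of those of Hspa1b, so reads of the pair could be lost or assigned to either copy. With both rows summed, the log2 difference after 8 Gy was 0.21 in Bub1KO and 0.45 in VC, and no comparison passed.

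Dnajb1, the J-domain protein that brings clients to inducible HSP70 (ENSMUSG00000005483.10, chr8:83608193-83612653, plus strand), passed in no comparison. It had 1503, 1589.6 and 1584 normalized counts in irradiated Bub1KO, 1663, 1598 and 1591 in irradiated VC, 1595, 1464 and 1656 in untreated Bub1KO and 1838, 1668 and 1957 in untreated VC. Untreated VC was above the other groups, if by a narrow margin at its lowest library. The log2 difference after 8 Gy was -0.010 in Bub1KO (95% interval -0.17 to 0.15; limma adjusted p = 0.920) and -0.17 in VC (adjusted p = 0.0756). Bub1KO against VC gave -0.053 after 8 Gy and -0.21 without it, and neither passed (limma adjusted p = 0.529 and 0.283).

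Hsp90ab1, the constitutive HSP90 (ENSMUSG00000023944.14, chr17:45567775-45573271, minus strand), had 120084, 122854 and 116182 normalized counts in irradiated Bub1KO and 113553, 107497 and 117266 in irradiated VC. Untreated Bub1KO cells had 144330, 140511 and 150668 normalized counts and untreated VC cells 159663, 160265 and 180552. Both genotypes were lower after 8 Gy without overlap, and the irradiated genotypes overlapped. The log2 difference was -0.28 ± 0.08 (SE, n = 3 each; limma adjusted p = 0.0101) in Bub1KO, where it did not pass without a filter on low values (adjusted p = 0.107), and -0.56 ± 0.08 (adjusted p = 5.3e-05) in VC. The interaction was 0.29 with a 95% interval of 0.044 to 0.53 and a limma adjusted p of 0.317.

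Hsp90aa1, the stress-inducible HSP90 (ENSMUSG00000021270.13, chr12:110690605-110702728, minus strand), also declined in both genotypes. Irradiated Bub1KO cells had 34151, 35179.8 and 35913 normalized counts, irradiated VC cells 34503, 32208 and 34599, untreated Bub1KO cells 53183, 39149 and 44119 and untreated VC cells 43143, 42932 and 48177. Irradiated libraries of both genotypes lay below all untreated ones, and the genotypes overlapped at each treatment. Its log2 difference after 8 Gy was -0.36 ± 0.10 in Bub1KO (SE, n = 3 each; limma adjusted p = 0.0070) and -0.40 ± 0.10 in VC (adjusted p = 0.0033). Bub1KO against VC gave 0.055 after 8 Gy (95% interval -0.067 to 0.18) and 0.014 without it (95% interval -0.27 to 0.29), and neither passed in limma (adjusted p = 0.494 and 0.971).

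**Figure D4:**
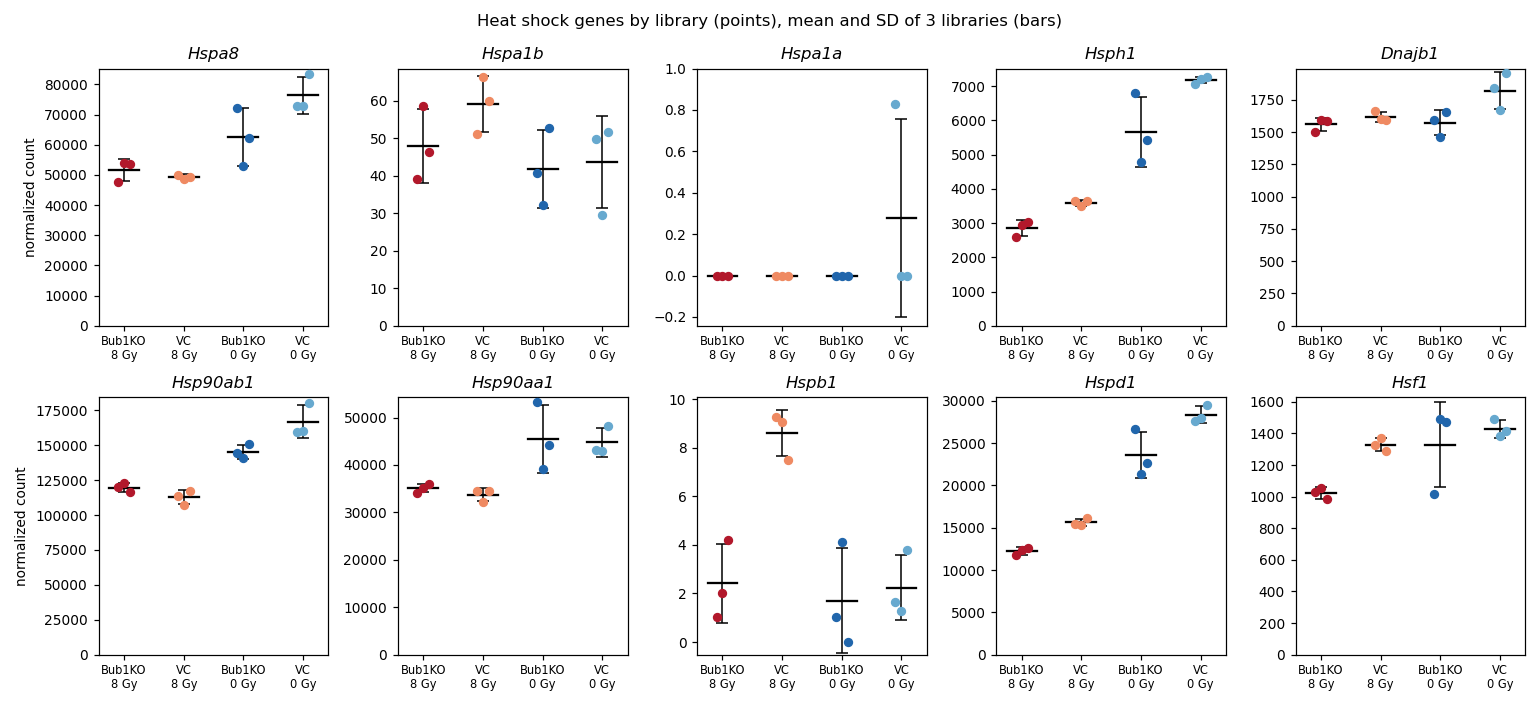
Normalized counts of the 10 genes in every library; points are libraries, horizontal lines group means and vertical bars the SD of 3 libraries, and each panel has its own y axis that includes 0. Irradiated libraries of Hsph1, Hspd1, Hsp90ab1 and Hsp90aa1 lie below the untreated ones in both genotypes, and the irradiated VC libraries stand alone in Hspb1.

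Hspb1, the small heat shock protein HSP27 (ENSMUSG00000004951.10, chr5:135887919-135889563, plus strand), rested on few reads: 7 in irradiated Bub1KO, 30 in irradiated VC, 6 in untreated Bub1KO and 6 in untreated VC, each over 3 libraries. The values were 1.03, 2.02 and 4.20 normalized counts in irradiated Bub1KO, 9.24, 9.08 and 7.51 in irradiated VC, 1.02, 4.11 and 0 in untreated Bub1KO and 1.66, 1.29 and 3.78 in untreated VC. The irradiated VC libraries were above every other library, and the other groups overlapped. In an exact two-sided permutation test irradiated VC differed from untreated VC with p = 0.1, and irradiated Bub1KO from irradiated VC with p = 0.1, which is the smallest p that 3 against 3 libraries can give; both are 0.2 when adjusted over the 4 comparisons. When no filter on low values was applied, limma gave Hspb1 a log2 difference after 8 Gy in VC of 1.64 (adjusted p = 0.0442). In that fit the other Hspb1 comparisons did not pass. Irradiated Bub1KO against irradiated VC gave -1.59 (limma adjusted p = 0.0885), and the interaction was -1.09 (adjusted p = 0.776). The direction of the 8 Gy difference in VC is opposite to that of the abundant chaperones there, at levels where 1 read is a sizeable part of a value.

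Hspd1, the mitochondrial HSP60 (ENSMUSG00000025980.14, chr1:55077835-55088243, minus strand), declined about as much as Hsph1. In Bub1KO the order of the pair turned when untreated replicate 1 was left out, with log2 differences of -0.85 for Hspd1 and -0.83 for Hsph1, against -0.94 and -0.97 with it. It had 11745, 12370.1 and 12636 normalized counts in irradiated Bub1KO, 15391, 15370 and 16140.2 in irradiated VC, 26602, 21358 and 22703 in untreated Bub1KO and 27627, 27943 and 29498 in untreated VC. The 4 groups did not overlap and stood in that order. After 8 Gy Hspd1 was at 52.0% of the untreated mean in Bub1KO (log2 difference -0.94 ± 0.08, SE, n = 3 each; limma adjusted p = 5.9e-07) and at 55.1% in VC (-0.86 ± 0.08; adjusted p = 1.3e-06). Irradiated Bub1KO cells averaged 12250.1 ± 457 and irradiated VC cells 15634 ± 439 (SD, n = 3 each), a log2 difference of -0.35 ± 0.05 (SE; limma adjusted p = 0.00040). In the untreated cells the means were 23554 ± 2724 in Bub1KO and 28356 ± 1002 in VC, a log2 difference of -0.27 (limma adjusted p = 0.188) that was -0.36 without Bub1KO replicate 1 (adjusted p = 0.0067). The interaction was -0.079 with a 95% interval of -0.32 to 0.16. Hspe1, which encodes the lid of the same chaperonin, starts head to head with Hspd1 on the opposite strand (chr1:55088132-55091307) and overlaps it, and whether the counting used strand is not stated. Hspe1 fell after 8 Gy by 0.42 on the log2 scale in Bub1KO (limma adjusted p = 0.00023) and by 0.48 in VC (adjusted p = 7.4e-05).

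Hsf1, the transcription factor of the heat shock response (ENSMUSG00000022556.11, chr15:76477422-76501913, plus strand), had 1031, 1057 and 982 normalized counts in irradiated Bub1KO cells and 1327, 1369.7 and 1287 in irradiated VC cells. Untreated Bub1KO cells had 1017, 1492 and 1474 normalized counts and untreated VC cells 1494, 1381 and 1418. The irradiated Bub1KO libraries were below all irradiated VC libraries, at 77.1% of their mean, and among the untreated libraries Bub1KO replicate 1 alone was as low. Bub1KO against VC after 8 Gy gave a log2 difference of -0.38 ± 0.06 (SE, n = 3 each; limma adjusted p = 0.00071). Hsf1 fell after 8 Gy in Bub1KO, by 0.35 on the log2 scale (adjusted p = 0.0226), but the call was lost under 5 of 20 alternatives (a fit on Bub1KO libraries alone, and without untreated replicate 2 or 3 or irradiated replicate 1 or 3 of Bub1KO), with an adjusted p of up to 0.0990, and in VC the difference was -0.11 (adjusted p = 0.462, limma). Without untreated Bub1KO replicate 1 the decline in Bub1KO was -0.54 (adjusted p = 6.2e-06) and the interaction was -0.43 (adjusted p = 0.0063), against -0.25 (adjusted p = 0.592) with it.

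Sharing of sequence with other genes bears on some of these values. Of the 100-base windows in the transcripts, 57.1% of those of Hspa8, 44.0% of Hspb1, 40.65% of Hsp90aa1 and 23.9% of Hspd1 also occur in another annotated gene, and 0% of those of Hsph1, Dnajb1, Hsp90ab1 and Hsf1. For Hspb1 and Hspd1 the gene sharing most windows was named as a pseudogene (Hsp25-ps1, 44.0%, and Hspd1-ps3, 22.4%). The other genes that share windows with Hspa8 summed to 646 normalized counts, beside 59977 for Hspa8, and those of Hsp90aa1 to 446, beside 39771. These sums hold measured genes only. The gene sharing most windows with Hspa8 (52.6%) was listed by identifier without a name, and its value was not looked up on its own. For Hspd1 they summed to 5914, beside 19949, of which Hspe1, its overlapping neighbour, had 5784. Gm10501, which shares windows with the Hspa1 pair, had 59.8, beside 48.2 for Hspa1b.

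The genes whose course over the 12 libraries was most like each tested gene were found by the root mean square difference of log2 values, each gene centred on its own mean. Hsph1 and Hspd1 were near each other, with Hspd1 second to Hsph1 at 0.074, and Ints13, a subunit of the Integrator complex, was nearest to both (0.051 from Hsph1 and 0.050 from Hspd1); Yars2 was second to Hspd1 at 0.067. For Hsp90aa1 the nearest were Cct4, a subunit of the cytosolic chaperonin (0.032), and Psma2, a proteasome subunit (0.036). For Hsp90ab1 they were Pes1 (0.035) and Prdx6 (0.036), and for Hspa8 Ptcd2 (0.070) and Mto1 (0.086). Emd and Kansl2 were nearest to Dnajb1 (0.055 and 0.058), BC030867 and Zc3h4 to Hsf1 (0.061 each), and A930005H10Rik and Fam216a to Hspa1b (0.18 and 0.19). The median distance of all 14720 other tested genes was 0.31 from Dnajb1 and 0.60 from Hsph1, the lowest and highest of the 8.

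The wider chaperone network was described with 9 lists, which hold 88 tested genes outside the 10, some of them in more than 1 list. The counts, medians and log2 differences of these lists were not examined with the GC trend removed. After 8 Gy 43 of the 88 were lower and 17 higher in Bub1KO, and 41 were lower and 18 higher in VC, with a median of -0.21 in each genotype. In shares, 48.9% were lower and 19.3% higher in Bub1KO, beside 23.9% and 25.4% of all tested genes, and 46.6% were lower and 20.5% higher in VC, beside 25.8% and 27.6%. Without untreated Bub1KO replicate 1 the count in Bub1KO was again 43 lower and 17 higher, while in VC 49 were lower and 25 higher, when 29.3% of all tested genes were lower and 32% higher. In that fit all 14 chaperonin and prefoldin genes were lower in VC, and 10 HSP90 cochaperones were lower and 5 higher. All 6 genes of the small heat shock protein list were higher, including Hspb11 and Hspb8, of which Hspb8 was tested only through irradiated libraries. The cytosolic chaperonin and prefoldin, which fold actin and tubulin, fell most evenly: 10 of 14 genes were lower in Bub1KO and 12 of 14 in VC, and none was higher in limma. Cct3, Cct5 and Cct6a fell by 0.55, 0.42 and 0.69 on the log2 scale in Bub1KO and by 0.66, 0.53 and 0.63 in VC. Of the 16 HSP90 cochaperones, 10 were lower and 1 higher in Bub1KO, and 8 lower and 3 higher in VC. Among them Stip1, which links HSP70 to HSP90, had 6933 ± 175 normalized counts in irradiated Bub1KO and 10115 ± 470.4 in untreated Bub1KO (SD, n = 3 each). In VC it had 6682 ± 163 normalized counts after 8 Gy and 10984 ± 363 without it. Ptges3, the cochaperone p23, fell by 0.82 in Bub1KO and by 0.95 in VC, and Ppid, a cyclophilin, by 0.65 and 0.76.

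J-domain proteins went both ways, with 9 lower and 3 higher of 16 in Bub1KO, and 8 lower and 3 higher in VC. Dnajc21, which acts in ribosome assembly, fell by 0.78 in Bub1KO and by 0.95 in VC, Dnajc13, an endosomal protein, by 0.62 and 0.52, and Dnajb2 rose by 0.98 and 0.84. Of the 6 further HSP70 and HSP110 genes, 3 were lower and 1 higher in each genotype. Without untreated Bub1KO replicate 1 the Bub1KO count was 2 lower and 2 higher, when 26% of all tested genes were lower and 25.4% higher. Hspa13 then no longer passed (limma adjusted p = 0.0540), and Hspa4l passed as higher (adjusted p = 0.0042). Hspa14 fell by 0.59 in Bub1KO and by 0.70 in VC, and Hspa4 by 0.40 and 0.42, whereas Hspa2, best known from the testis, rose by 1.09 and 1.19. The nucleotide exchange and adaptor proteins had 6 lower and 2 higher of 12 in Bub1KO, and 6 lower and 1 higher in VC. Bag5, one of them, fell by 0.22 in Bub1KO and by 0.42 in VC, and was higher in Bub1KO than in VC after 8 Gy, with 2451 ± 25.3 against 1783 ± 48.7 normalized counts (SD, n = 3 each; limma adjusted p = 6.9e-05).

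Small heat shock proteins outside the 10 were the list with no lower call after irradiation. Of its 6 genes 4 were higher in Bub1KO and 5 in VC, with medians of 0.72 and 1.03. Hspb8, counted in these calls and medians, reached 10 normalized counts only in irradiated libraries, at 12.8 and 15.0 in VC and 13.4 in Bub1KO. Its untreated values did not exceed 3.78. Hspb8 was thus tested only through groups where it is high, so a lower call was hardly possible for it. Hspb7, best known from heart muscle, had 26.1 ± 0.3 normalized counts in irradiated Bub1KO and 6.8 ± 3.5 in untreated Bub1KO (SD, n = 3 each), and in VC 57.1 ± 3.0 after 8 Gy and 12.9 ± 6.8 without it. It was lower in Bub1KO than in VC after 8 Gy, by 1.10 on the log2 scale (limma adjusted p = 0.00063), and 3 of the 6 genes were lower there and 1 higher. Cryab, the alpha B crystallin, was abundant, with 12970 ± 657 in irradiated Bub1KO and 9404 ± 1791 in untreated Bub1KO, and in VC with 13891 ± 659.6 after 8 Gy and 9585 ± 532 without it. Its log2 difference after 8 Gy in Bub1KO was 0.48 (limma adjusted p = 0.0029), and 0.32 without untreated Bub1KO replicate 1 (adjusted p = 0.0012). Hspb11 carries the family's name but is a subunit of intraflagellar transport. It is counted among the 6 genes of this list, in the higher calls of both genotypes and in the medians. It rose by 0.97 in Bub1KO and by 1.07 in VC, and was higher in Bub1KO than in VC both after 8 Gy (log2 difference 0.72, limma adjusted p = 0.00027) and without it (0.82, adjusted p = 0.0136).

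Of 11 mitochondrial chaperones and proteases, 5 were lower and 2 higher in Bub1KO after 8 Gy, and 4 lower and 3 higher in VC. Hspa9, the mitochondrial HSP70, fell by 0.48 in Bub1KO and by 0.33 in VC, and Hscb, which serves iron-sulfur cluster assembly, rose by 0.73 and 1.29. The 15 textbook HSF1 targets outside the 10 split into 7 lower and 5 higher in Bub1KO, and 6 lower and 2 higher in VC, with medians of -0.23 and 0.0034. Fkbp4, an HSP90 cochaperone, fell by 0.56 in Bub1KO and by 0.68 in VC, and Ahsa1, which stimulates the ATPase of HSP90, by 0.46 and 0.56. Among 4 further heat shock factors and regulators, Hsf2 fell by 0.33 in Bub1KO (not passing without untreated Bub1KO replicate 1, adjusted p = 0.136) and by 0.49 in VC, Hsf4 rose by 0.67 and 1.32, and Hsbp1, a small inhibitor of HSF1, by 0.32 and 0.35. The Bub1KO value of Hsbp1 was 0.20 without untreated Bub1KO replicate 1.

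**Figure D5:**
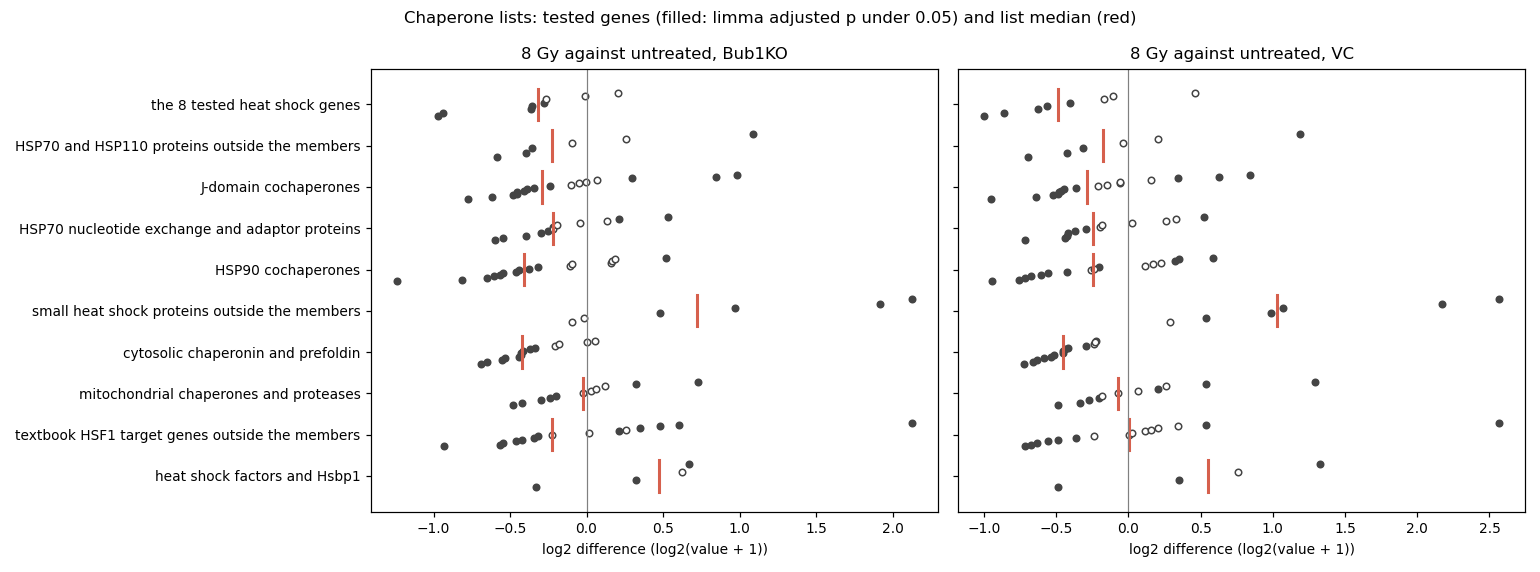
Log2 differences after 8 Gy of the tested genes of each chaperone list, in Bub1KO (left) and VC (right); each point is a gene, filled where limma's adjusted p is under 0.05, and the red line is the list's median. The cytosolic chaperonin and prefoldin list lies left of 0 in VC. The small heat shock protein list, Hspb11 and Hspb8 included, has the highest medians, 0.72 in Bub1KO and 1.03 in VC.

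Between the genotypes fewer of the 88 genes passed. After 8 Gy 16 were lower and 12 higher in Bub1KO than in VC, with 5 of 16 HSP90 cochaperones lower and none higher. These 18.2% and 13.6% of the 88 lie near the 16.4% and 14.3% of all tested genes. Without irradiation 2 passed, Hspb11 and Hscb, both higher in Bub1KO, and without untreated Bub1KO replicate 1 there were 12 higher and 7 lower, 13.6% and 7.95% of the 88, beside 10.2% and 8.4% of all tested genes. In the interaction 0 of the 88 passed in limma, with at most 2 in any list at an unadjusted p under 0.05, and without that library 8 passed, all negative, which is 9.09% of the 88, beside 7.53% of all tested genes that were negative.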

How the data were processed

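The authors deposited 2 tables of 55421 genes, 1 for each treatment. Per the file headers and values, the deposited signal of a library is its read count over a size factor. Both tables hold an identical mean over all libraries and so share 1 normalization. They further hold a log2 fold change (VC over Bub1KO), a test score and p-values, raw and adjusted, computed by the authors. Trim Galore, cutadapt, STAR, SAMtools, HTSeq and GRCm38.p6 (mm10) are named without versions in the submitters' processing notes. The sources used here do not state the annotation release, the strand setting or how multiply mapped reads were treated. Per the labels' protocols, total RNA was extracted with TRIzol and libraries were stranded and depleted of ribosomal RNA.

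Whole reads were recovered from the steps between values for 100.0% of them, within 0.01 of a read, and the size factors were 0.775 to 1.41. For such normalized values the design named limma-trend from limma 3.58.1, run under R 4.3.3, on log2(value + 1), with Benjamini-Hochberg adjustment over 14721 genes and a threshold of 0.05. On this scale the change of low genes is understated. Bub1KO was compared with VC on the 6 libraries of a treatment, and the effects of 8 Gy and the interaction were fitted on all 12. Count tests on the recovered reads used edgeR 4.0.16 and DESeq2 1.42.0. The fits were tested on simulated data. Positions and exon lengths come from GENCODE M21, which matched 55240 identifiers.

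The members and the gene lists were chosen with earlier results of these data known. In each list up to 3 genes were named by rule. These had the smallest adjusted p in the interaction or, where none passed, in the 8 Gy comparison in VC. Hspa13, Hspa4l, Hspb8, Cd68, Lyz2, Cd79a and the genes that share sequence with a member were named after their values were seen. The alternatives were another pseudocount, no filter on low values, TMM factors, edgeR, DESeq2, a replicate block, removal of a GC trend, other libraries in the fit and each library left out. The list counts without untreated Bub1KO replicate 1 were added after that library was seen to stand apart.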

Additional observations from a re-analysis of the deposited data

How the results depend on the processing

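No call of a tested gene changed direction under any alternative, and Hspd1 and Hsph1 after 8 Gy, Hsp90aa1 after 8 Gy, Hspa8 and Hsp90ab1 after 8 Gy in VC, and Hspd1 and Hsf1 in irradiated Bub1KO against VC passed under every one. The number of the 8 genes called in untreated Bub1KO against VC was 0, but 2 with the GC trend removed, 2 with all 12 libraries in the fit, and 0 to 3 when each library was left out. In the interaction it was 0 to 2 when each library was left out, and the summed Hspa1a and Hspa1b passed under no alternative. Over all genes, the untreated genotype comparison called 591, against 329 without a filter, 1690 with the GC trend removed, 1769 with all 12 libraries in the fit and 172 to 2736 with each library left out, the highest without Bub1KO replicate 1. The irradiated genotype comparison called 4512, against 2062 without a filter and 2105 with all 12 libraries in the fit. The interaction called 81, against 283 with DESeq2, 418 with the GC trend removed and 33 to 1447 with each library left out. The cause of these shifts was not tested. Replicate numbers did not pair the libraries (correlations of same-numbered libraries from -0.193 to 0.196); with a replicate block, 0 and 3 of the 8 genes were called in untreated and irradiated Bub1KO against VC, and over all genes 312 without irradiation and 47 in the interaction. Depth limits Hspa1a and Hspb1, with 1 and 49 reads in all libraries together.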
